A study of Mus musculus with 8 samples.

Results

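Clusters of cytosines in gene-poor intergenic sequence were taken from both deposited lists of a reduced representation bisulfite sequencing study of mouse muscle stem cells. A cluster here is 1 region of these lists, with 1 verdict from the authors, and can be a single position. How cytosines were grouped into clusters is not stated. Clusters shorter than 400 bp were kept when their midpoint lay more than 20000 bp outside every RefSeq gene of any biotype (mm10, GRCm38). This gave 2499 gene-poor clusters among 27878 in all, or 8.96% (95% interval 8.63 to 9.31%, by the exact Clopper-Pearson method and for counting error alone). They covered 256513 bp, or 7.88% of the bases in all clusters. The limit on length removed only 10 clusters that met the distance.

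The cells were muscle stem cells sorted from Tg:Pax7-nGFP/+ mice, in which a nuclear green fluorescent protein follows Pax7, the paired-box regulator known as their marker; all 8 samples carry this transgene. In 4 samples the cells were fixed with 0.5% paraformaldehyde and in 4 they were live, with 1 animal for each sample; the age of the mice is not stated. Sample titles carry T0 for fixed and T3 for live cells, and if these mark times, time and fixation cannot be told apart. The title of the study speaks of fixation in situ and its design text of fixation after isolation. DNA came from a kit made for fixed, embedded tissue in both groups. The design asks whether fixation changes DNA methylation. The deposited files give positions, the authors' verdict on each cluster and a table of the significant regions, with no level per sample and no read depth, so the spread between animals is unknown and no marker of cell identity could be checked. For the same reason the comparisons here are counts, shares and medians without a test, and clusters close to each other are not independent.

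Reduced representation bisulfite sequencing cuts DNA at CCGG sites and reads short fragments, which favours CpG-rich sequence. Such sequence is dense at promoters and sparse far from genes. Long stretches without genes often flank genes of embryonic patterning and nerve cell adhesion, and are known to hold distant enhancers of some of them. Methylation at such sites is known to vary between cell types.

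Of the 2499 gene-poor clusters, the authors listed 2 as significant between fixed and live cells. The share was 0.0800% (exact 95% interval 0.00969 to 0.289%), where 0.0753% of all clusters were listed as significant. Among clusters under 400 bp it was 0.0776%. At the overall share, 2499 clusters correspond to 1.88 significant ones. The members' share was therefore close to the background. Among the other clusters under 400 bp, 19 of 24575 were significant, or 0.0773% (0.0466 to 0.121%). Both significant gene-poor regions had a negative methylation difference in the authors' deposited table, a sign carried by 15 of its 21 regions, or 0.0538% of all clusters. Which group was subtracted from which is not stated, so the sign cannot be read as a gain or a loss in fixed cells.

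The first of these regions lies on chromosome 5 (106163904 to 106164045), in a gap of 103.4 kb between the noncoding RNA gene Gm32736 and the pseudogene Gm5987. Its difference in the authors' deposited table was -23.5 percentage points, the 6th in size of 21, with a p listed as 0, the smallest in that table. The authors' deposited table assigns it to Zfp326, a zinc finger gene, with 287336 bp to the transcript start. Measured from the midpoint to the bounds of the gene, Zfp326 lay 248156.5 bp away. On the other side the nearest protein-coding gene was Barhl2, a homeobox gene of the developing nervous system, 288548.5 bp away by the same measure. The region was 142 bp long, and 78.3% of the gene-poor clusters were shorter. It stood alone, since no other cluster of the set lay in its gap. The nearest cluster before it, of 128 bp, was 160256 bp away, and the nearest after it, of 268 bp, was 63755 bp away; neither was listed as significant.

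The second region lies on chromosome 8 (41552084 to 41552177), in a gap of 190.7 kb between the noncoding RNA gene Gm50494 and the pseudogene Gapdh-ps14. In the authors' deposited table its difference was -17.0 percentage points, the 15th in size of 21, with p = 3.55e-07. The authors' deposited table assigns it to Frg1, a gene named for the region linked to facioscapulohumeral muscular dystrophy in humans, with a signed distance of -134966 bp to the transcript start. The next protein-coding gene on the other side was Triml1, 1577675.5 bp away. Unlike the region on chromosome 5, it shared its gap with 3 other gene-poor clusters, at 41444347 to 41444418, 41549311 to 41549544 and 41583995 to 41584066. The cluster before it was only 2539 bp away and 234 bp long, and the authors listed it as not significant.

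The authors' deposited table calls 6 of its regions distal intergenic, and the rule kept 2 of these 6. The regions assigned to Pcolce2 and Prl5a1 lay 12105 and 13535 bp from a gene, inside the limit of 20000 bp. The regions assigned to Slc16a9 and Gm13212 overlapped a RefSeq gene. At the limit itself the nearest cluster left out lay 19987 bp from a gene and the nearest one kept lay 20002 bp away. Between 18 and 20 kb lay 199 clusters under 400 bp, and between 20 and 22 kb lay 165.

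Gene-poor sequence held few clusters for its size, and fewer the farther from genes. Between the first and the last gene of each chromosome, sequence more than 20 kb from any gene made up 800.6 Mb, or 29.6% of the whole, and held 9.23% of the clusters under 400 bp. That is 3.12 clusters per Mb, against 12.9 per Mb in all other sequence. Inside genes the density was 15.0 clusters per Mb. From 5 to 20 kb outside genes it was 6.48, from 20 to 50 kb 4.37, from 50 to 100 kb 2.94, from 100 to 200 kb 1.92 and beyond 200 kb 1.44. Each class farther out was thinner than the one before. Assembly gaps were not subtracted from these lengths. Without chromosome Y, whose 73.7 Mb of gene-poor sequence held 9 clusters, the gene-poor density was 3.42 per Mb, and the 4 gene-poor classes still fell in the same order, from 4.61 to 1.64 per Mb. The midpoints lay a median of 44305.5 bp from a gene (quartiles 28755.75 and 79940.5 bp) and at most 535423.5 bp.

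**Figure D1:**
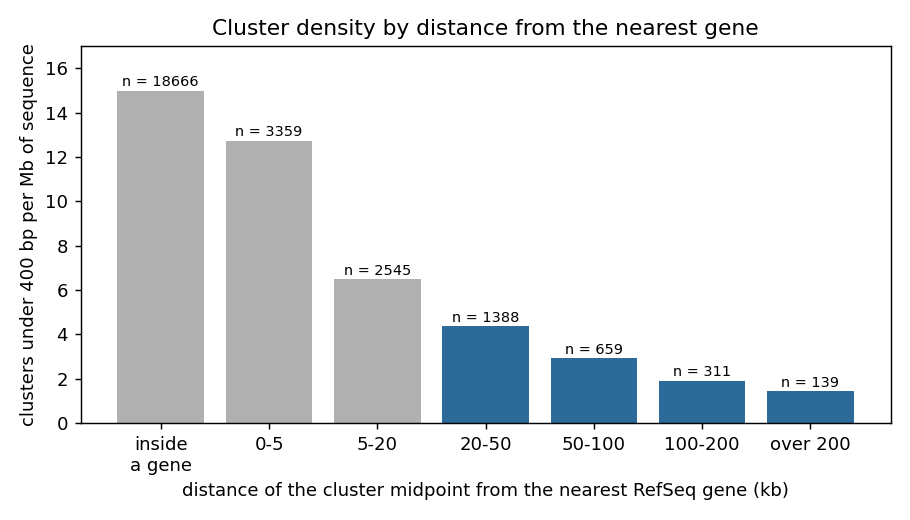
Clusters under 400 bp per Mb of sequence (y axis) by distance of the cluster midpoint from the nearest RefSeq gene in kb (x axis), with the number of clusters above each bar; blue bars are gene-poor clusters. Density fell from 15.0 per Mb inside genes to 1.44 per Mb beyond 200 kb.

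The share of gene-poor clusters among a chromosome's clusters and their density per gene-poor Mb gave different orders. Among the autosomes the share of a chromosome's clusters that were gene-poor ran from 3.53% on chromosome 19 to 13.7% on chromosome 3, and it was 13.9% on chromosome X. Per Mb of gene-poor sequence, chromosome 5 stood highest with 4.89 (197 clusters), followed by chromosome 9 with 4.45 and chromosome 8 with 4.37. The lowest autosomes were chromosome 14 with 2.11 and chromosome 16 with 2.29. Chromosome X had 2.31 per Mb (157 clusters), against 3.54 over the autosomes, but its other sequence was also thinner, with 8.97 clusters per Mb against 13.3. Chromosome X also showed less of a fall with distance, though on few clusters. It had 2.32 per Mb at 20 to 50 kb (71 clusters) and 2.47 at 50 to 100 kb (50 clusters). Farther out it had 2.20 at 100 to 200 kb (27 clusters) and 1.79 beyond (9 clusters). On chromosome Y, 9 of 14 clusters were gene-poor, which was 0.122 per Mb, and the mitochondrial genome had 0 of its 6. The significant regions lay on chromosomes 5 and 8, which held 197 and 172 of the 2499 gene-poor clusters. Chromosome 9, denser than chromosome 8, held 0 significant ones, and 2 regions are too few to relate to density.

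**Figure D2:**
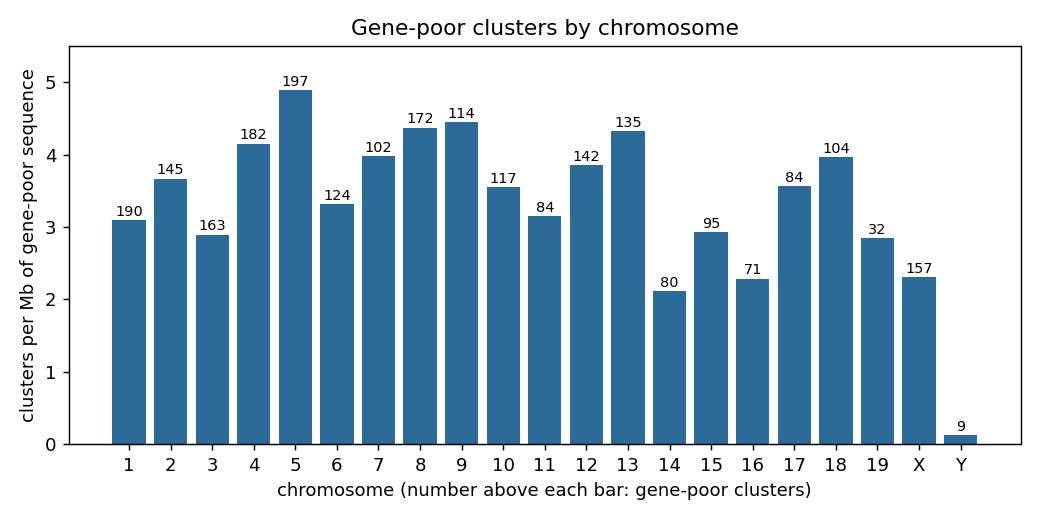
Gene-poor clusters per Mb of gene-poor sequence (y axis) on each chromosome (x axis), with the number of clusters above each bar. Chromosome 5 stands highest at 4.89 per Mb and chromosome Y lowest at 0.122.

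Most gene-poor clusters stood alone. The median gap between neighbours of the set was 409581 bp (quartiles 71190.25 and 1323983.75 bp), with 101 bp as the smallest, and 99 gaps were under 1000 bp. Another gene-poor cluster lay within 10000 bp of 490 of them (19.6%). Counting every cluster of the lists as a neighbour, 21.1% of gene-poor clusters had one within 10000 bp, against 51.2% of the other clusters under 400 bp, and the median gap to the nearest one was 48637 bp against 9394 bp. Linked at 10000 bp, 490 clusters formed 215 runs, of which 178 were pairs and 37 held 3 or more. Of the 8500 gaps between genes long enough to hold a gene-poor cluster, 1681 (19.8%) held at least 1, and 1192 held exactly 1. Gaps with a cluster had a median length of 146.9 kb and those without 73.0 kb. The gene-poor part of a gap is its length less 20 kb at each end, so longer gaps offer more room by construction. A few gaps were crowded, with 29 holding 5 or more and 192 clusters between them.

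The crowded places lay beside genes of several kinds, with transcription factors of development among them. Windows of 1 Mb were ranked by their number of gene-poor clusters, and the 10 densest held 128, or 5.12% of the set, where 1243 windows held any and 616 held 1. The densest window, with 19 of its 70 clusters gene-poor, lay on chromosome 8 from 121000001 to 122000000. In it 13 clusters filled a gap of 154.1 kb between the noncoding RNA genes Gm33823 and Gm26747, past Foxl1, a forkhead transcription factor gene of the gut mesenchyme. The nearest protein-coding gene was 134.5 to 191.7 kb from these 13 clusters. Over the window's 19 clusters it was 1700018B08Rik for 10, Foxl1 for 7, and Zcchc14 and Jph3 for 1 each. The first 7 formed a run of 34.7 kb from 121287630 to 121322337, with 114, 168, 125, 55, 127, 144 and 69 bp in length and with gaps of 6622, 6147, 6023, 4107, 5043 and 5964 bp between them. This spacing was more even than in the other runs of 5 or more, whose gaps ran from 206 to 9468 bp.

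Chromosome 5 held 4 of the 10 windows. In the order given here, 16 of 43, 11 of 63, 10 of 29 and 10 of 25 of their clusters were gene-poor. Between Nkx1-1, a homeobox gene, and Fam53a (33499703 to 33575501), 12 clusters lay in a gap of 166.3 kb, 6 nearer to each gene. A run of 6 of them spanned 12.1 kb and opened with lengths of 76, 76 and 75 bp; in the same window 4 more lay nearest to Tacc3, which encodes a centrosomal protein. Near Rbm19, an RNA-binding protein gene, and Lhx5, a LIM homeobox gene, 10 clusters lay between the noncoding genes Gm31836 and Gm27199 (120271329 to 120358577), 72.4 to 109.4 kb from the nearest coding gene. Another 10 lay between Tmem132d, a transmembrane protein gene, and Fzd10, a Wnt receptor gene (128473969 to 128542197). In the window from 75000001 to 76000000, 7 clusters had as their nearest coding gene the receptor tyrosine kinase gene Kit, 2 had Kdr, a receptor of vascular endothelial growth factor, and 1 had Pdgfra, a receptor of platelet-derived growth factor. The 10 clusters there were short, with a median length of 69.5 bp.

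On chromosome 18, 16 of the 22 clusters from 81000001 to 82000000 were gene-poor. The nearest coding gene was Sall3, a zinc finger transcription factor gene, for 14 of them, from 61.7 to 611.0 kb away, and Galr1, a galanin receptor gene, for 2. The nearest gene of any kind had only a predicted name for all 16, led by Gm30288 with 6. On chromosome 12 from 106000001 to 107000000, 15 of 30 clusters were gene-poor and all 15 had Vrk1, a protein kinase gene, as the nearest coding gene. They sat on both sides of the small nucleolar RNA gene Gm24986, with 6 clusters in the 67.9 kb before it and 7 in the 187.2 kb after it. The gap before Gm24986 was the most crowded per length among gaps with 5 or more, at 215.4 clusters per gene-poor Mb. On chromosome 8 from 92000001 to 93000000, the nearest coding gene was Irx5 for 10 clusters and Irx6 for 1, both Iroquois homeobox genes. Irx5 was also the nearest gene of any kind for 5 of these 11. On chromosome 4, a window near Kazn and Prdm2 and another near Ajap1 held 10 each.

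**Figure D3:**
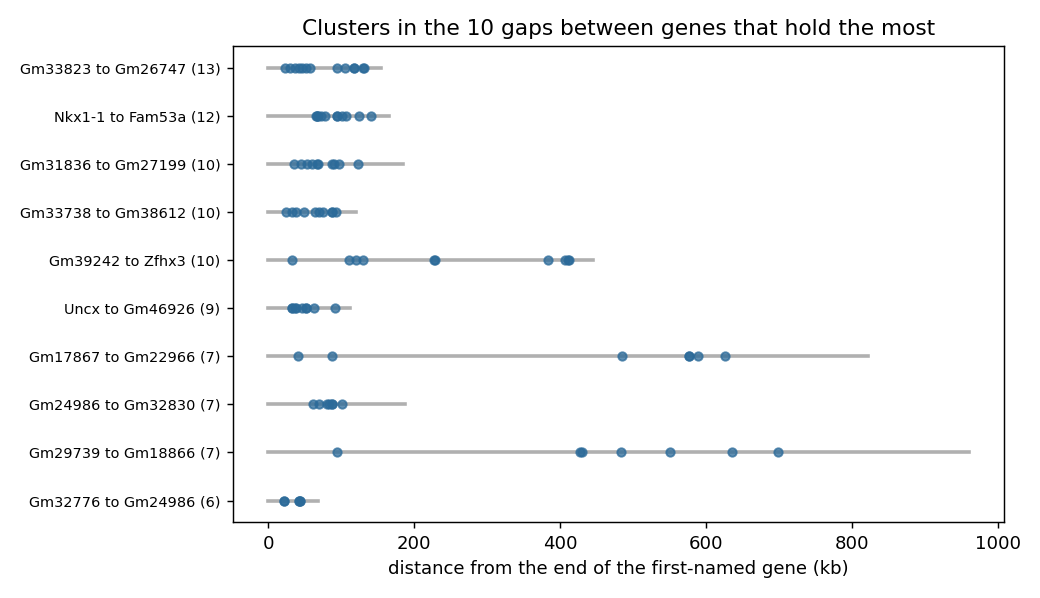
Positions of gene-poor clusters (points) in the 10 gaps between neighbouring RefSeq genes (grey lines, to scale) that hold the most, as distance in kb from the end of the first-named gene; the number of clusters stands in brackets. The first 7 clusters after Gm33823 were evenly spaced and the other 6 stood apart from them, clusters bunched after Uncx, and they stood far apart in the gaps of 822.1 and 960.4 kb.

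Not every hot spot was captured by windows. After Uncx, a homeobox gene needed for the axial skeleton, 9 gene-poor clusters lay in a gap of 112.7 kb on chromosome 5. Of these, 7 formed a run of 20.0 kb from 139580287 to 139600313, with lengths of 178, 155, 1, 246, 249, 96 and 70 bp. Before Zfhx3, a zinc finger homeobox gene, 10 lay in a gap of 445.0 kb on chromosome 8. Between Sall4, a zinc finger transcription factor gene, and Zfp64, a zinc finger gene, a run of 5 spanned 19.6 kb on chromosome 2. By contrast, the gap between the pseudogenes Gm29739 and Gm18866, far before the protocadherin gene Pcdh10, held 7 clusters in 960.4 kb, so its density of 7.61 per gene-poor Mb was well under the 123.8 after Uncx.

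Of the 49980 genes used, 21900 were protein-coding. The nearest gene of gene-poor clusters was usually noncoding. It was a long noncoding RNA gene for 910 gene-poor clusters (36.4%), a pseudogene for 690 (27.6%) and a protein-coding gene for 654 (26.2%). Small nucleolar RNA genes were nearest for 113 and microRNA genes for 18. In 71.7% of cases the nearest gene had only a predicted name. The 2499 clusters were spread over 1885 nearest genes, of which 1449 had 1 cluster. Gm24986 led with 10, followed by the noncoding genes Gm26747 with 9 and Gm31836 with 8. Olfactory receptor genes, which often lie in large gene arrays, were nearest for 11 and vomeronasal receptor genes for 8.

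Protein-coding genes lay a median of 113370.5 bp away (quartiles 50824.5 and 294500 bp), and 113 clusters were more than 1000 kb from any. The nearest coding genes numbered 1440, and Vrk1 led with 16 clusters, followed by Sall3 with 14, Zfp64 with 11 and Ajap1, an adherens junction protein gene, with 10. For 1912 clusters the strand of the nearest coding gene was in the RefSeq promoter table, and 48.3% of these (exact 95% interval 46.0 to 50.5%) lay on its upstream side. Of the other clusters under 400 bp outside coding genes, 59.4% (58.2 to 60.6%) did.

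Gene lists were compared by how many gene-poor clusters had a list gene as the nearest coding gene, beside the gene-poor sequence that each gene borders. A coding gene is here said to border all gene-poor sequence to which it is the nearest coding gene, also where noncoding genes or pseudogenes lie between. Over all 21900 protein-coding genes, 6161 bordered such sequence and 1440 (6.58%) were nearest to a cluster. Of those that border it the share was 23.4%. The density was 3.12 clusters per gene-poor Mb, or 3.42 without chromosome Y. Density fell with distance from genes, and the lists were not matched for distance. Of 139 developmental transcription factor genes found, 69 (49.6%, or 61.1% of those bordering gene-poor sequence) were nearest to 169 clusters, or 7.56 per gene-poor Mb. Most of these genes had few clusters each, 32 of the 69 having 1, and Sall3 with 14 had the most. Sox2, a regulator of neural and stem cell identity, had 5 clusters, 1 upstream at 168046 bp (chromosome 3, 34481917 to 34481981) and 4 downstream at 414657.5 to 512550 bp. Sox9, a regulator of cartilage formation known for distant enhancers, had 3, from 193475.5 to 301440 bp away on chromosome 11. Sox6, which acts in cartilage and in muscle fibre type, had 1.

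Genes of adhesion and synapses were also nearest to a cluster more often than all coding genes, but with fewer clusters per Mb. Both lists bordered more gene-poor sequence than all genes did, with a median of 1041 kb for adhesion and synapse genes and 113 kb for the transcription factors, against 33.7 kb, among genes that border any. Of 62 genes, 40 (64.5%) were nearest to 132 clusters, but they bordered 61.9 Mb of gene-poor sequence, so the density was 2.13 per Mb, under the 3.12 of all genes. Cdh2, which encodes N-cadherin, had 8 clusters between 201014.5 and 1423040 bp away on chromosome 18. Cdh6 and Cdh7, both cadherin genes, had 5 and 3, and the nearest of these 8 was still 328460.5 bp from its gene. Signalling genes of development had 2.95 per Mb on 46 clusters, close to the 3.12 of all genes (3.42 without chromosome Y). Of 69 signalling genes, 23 (33.3%) were nearest to these clusters, against 6.58% of all coding genes. Of those bordering gene-poor sequence the share was 37.9%, against 23.4%. Among them Bmp7 had 4 clusters, 80088.5 to 139721.5 bp away, Gdf6 had 3 and Bmp2 had 2; all 3 genes encode bone morphogenetic protein family ligands.

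Of 26 genes of muscle stem cells and muscle formation, 6 (23.1%) were nearest to 7 gene-poor clusters, against 6.58% of all coding genes. Of those that border gene-poor sequence the share was 37.5%, against 23.4%. The density was 4.11 per Mb against 3.12, or 3.42 without chromosome Y. It spans only 1.70 Mb of gene-poor sequence and rests on few clusters. Myod1, the regulator of myogenic commitment, had 1 cluster of 6 bp at 46349099 to 46349104 on chromosome 7, 27372.5 bp from the gene. Pax3, a relative of Pax7 in muscle progenitors, had 1 of 57 bp at 77985230 to 77985286 on chromosome 1, 116009 bp away. Cxcr4, a chemokine receptor gene, had a pair on chromosome 1 at 261091.5 and 263021 bp upstream, of 136 and 93 bp. Hes1, a target of Notch signalling, and Tcf21, a transcription factor gene, had 1 each.

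The 10 gene-poor clusters farthest from any gene lie, by this choice, in long gaps. They had cadherin or protocadherin genes as the nearest coding gene in 5 cases. The adhesion and synapse list, with Cdh9, Pcdh7 and Pcdh10 in it, was nearest to 61.9 of the 800.6 Mb of gene-poor sequence. It was nearest to 5.28% of all gene-poor clusters, and it borders long gene-poor stretches, so the 5 cases do not set far clusters apart. The farthest of all, 535.4 kb from any gene, lay on chromosome 5 (47098998 to 47099139), with Slit2, a secreted axon guidance ligand gene, as the nearest coding gene at 882.2 kb. The next, of 188 bp and 517.6 kb from any gene, lay on chromosome 15 between Cdh6 and Cdh9. The third (chromosome 3, 44247808 to 44247851) was 477.3 kb from the pseudogene Gm18866 and 1130.6 kb from Pcdh10. The fourth lay on chromosome 4, 698.2 kb from Epha7, an ephrin receptor gene. Dsc3, a desmosomal cadherin gene, and Pcdh7, a protocadherin gene, were the nearest coding genes of 1 each. Pcdh10 came up again for the tenth, which lay in the same gap as the third. A pair on chromosome 6 lay 435.5 and 448.9 kb from Ndufa4, and the one near Tbc1d32 was a single position.

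Gene-poor clusters were as long at the median as the others but had another spread of lengths. Their median length was 84 bp (quartiles 62 and 133 bp), against 86 bp (54 and 139 bp) in the other clusters under 400 bp. Lengths up to 76 bp, the number of sequencing cycles, made up 45.1% against 44.9%. The longest was 397 bp, and the next longer cluster beyond 20 kb, left out by the rule, was 403 bp. Single positions were rarer, with 55 (2.20%) against 2418 (9.84%). From 5 to 20 kb outside genes, just short of the limit, they made up 3.34%. Lengths from 41 to 60 bp made up 15.2% against 10.3%, and those from 61 to 80 bp 25.5% against 18.5%. The median also moved with distance, from 88 bp at 20 to 50 kb to 81 bp at 50 to 100 kb and 76 bp both at 100 to 200 kb and beyond.

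**Figure D4:**
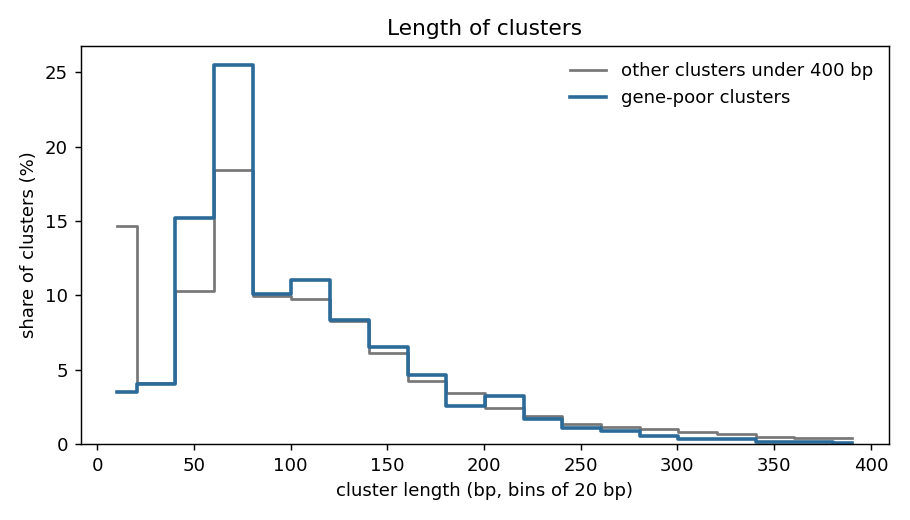
Share of clusters in % (y axis) by length in bins of 20 bp (x axis) for gene-poor clusters (blue) and the other clusters under 400 bp (grey). The first bin holds 3.48% of gene-poor clusters against 14.7% of the others, and the bin from 61 to 80 bp holds 25.5% against 18.5%.

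Some exact lengths recurred. The most common length was 62 bp, held by 67 gene-poor clusters on 20 chromosomes (2.68%, against 0.883% of the others), and only 10 of the 67 had another gene-poor cluster within 10000 bp. A length of 44 bp was held by 45 (1.80% against 0.480%) and one of 69 bp by 47 (1.88% against 0.911%). A length of 76 bp was held by 64 (2.56% against 1.57%). The share at 62 bp was 1.01% within 5 kb of a gene and 1.02% at 5 to 20 kb. Among gene-poor clusters it was 1.95% at 20 to 50 kb, 2.88% at 50 to 100 kb and 5.47% at 100 to 200 kb. It was 2.88% beyond 200 kb, where only 139 clusters remained. The share at 76 bp also stood at 5.47% at 100 to 200 kb, and at 2.16% beyond. Single positions fell from 10.4% within 5 kb to 3.34% at 5 to 20 kb and 2.02% at 20 to 50 kb. Most of that fall came before the limit of 20 kb. For 44, 69 and 76 bp the shares were 0.943%, 1.45% and 1.81% at 5 to 20 kb. At 20 to 50 kb they were 1.15%, 1.51% and 2.02%. Repeated elements and CpG content, which could be compared with these lengths, were not tested.

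**Figure D5:**
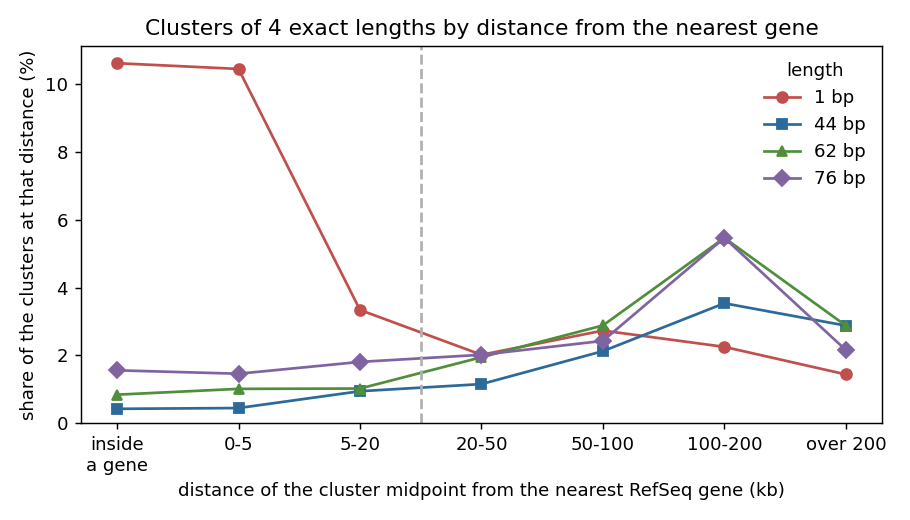
Share in % (y axis) of the clusters under 400 bp at each distance from the nearest RefSeq gene in kb (x axis) that have a length of exactly 1, 44, 62 or 76 bp (lines); classes right of the dashed line are gene-poor. Single positions fall from 10.6% inside genes to 2.02% at 20 to 50 kb. In the classes farther out they stand at 2.73%, 2.25% and 1.44%, the last on only 139 clusters. Lengths of 62 bp and 76 bp both reach 5.47% at 100 to 200 kb, from 0.841% and 1.56% inside genes. They stand at 2.88% and 2.16% beyond 200 kb.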

How the data were processed

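Sorted muscle stem cells of 8 mice (4 fixed, 4 live) were assayed with 95 ng of DNA and 76 cycles per library, per the labels' protocols. Bismark 0.14.4, ChIPseeker 1.12.1 and Trim Galore 0.4 stand in the submitters' processing notes with mm10. The region caller, its filters and the read depth are not stated there or in the labels. The authors deposited 2 lists of positions and a table of regions with a p-value each, whose adjustment is not stated. The methylation difference in the authors' deposited table is a signed score on the fraction scale, multiplied here to percentage points. Its median levels for groups 1 and 2 match no label and were not used.

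List starts were raised by 1 bp. Distances ran from the cluster midpoint to the outer bounds of genes in the RefSeq table of GRCm38.p6. Gene-poor sequence was measured between the first and last gene of each chromosome, which left out 2 clusters. Tables were made with pandas 2.3.3 and numpy 2.4.6 in Python 3.11.15, intervals with scipy 1.17.1 and plots with matplotlib 3.10.9, and the distance code was checked on made-up genes. Exact intervals cover counting error only. No genome sequence was used.

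The clusters and lists were chosen with earlier results of these data known. Named genes are the nearest genes of significant regions, of the 10 farthest clusters, of the 10 densest windows and of most clusters, and the first 3 of each list. Sall4, Hes1 and Tcf21, the fuller gaps and runs, and all exact lengths were named after their values were seen. One gene of the lists is not reported here by name. Alternatives were other distances, lengths, gene types, merging, overlap, chromosomes, neighbour distances, window positions and a smaller p.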

Additional observations from a re-analysis of the deposited data

How the results depend on the processing

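Of 43 values computed under alternatives, 30 stayed close to the main value (within 1.5 times for counts, inside its 95% interval for the rest), and 13 moved. The number of gene-poor clusters was 3854 with a distance over 10000 bp, 1109 over 50000 bp and 5493 with protein-coding genes only, by the construction of these settings. The median distance was then 27745 bp, 87298 bp and 79978 bp. The median length was 77 bp both over 50000 bp and with lengths under 200 bp. The share with another gene-poor cluster within 10000 bp was 16.1% over 50000 bp, 24.4% with protein-coding genes only, 17.3% with lengths under 200 bp and 12.8% with neighbours within 1000 bp merged. With a neighbour distance of 100000 bp it was 45.7%. The significant share stayed inside its interval under the alternatives run, with 4 significant clusters over 10000 bp and 4 with protein-coding genes only. That interval rests on 2 significant clusters and is wide, so staying inside it shows little. The densest window held 20 clusters when windows were shifted by 500000 bp, against 19. Both significant regions passed the smaller p, so that setting tested nothing. No paired analysis was possible because no level of a single sample was at hand, and leaving out replicates was not possible either. Unknown depth limits what clusters not listed as significant can show.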

Other observations

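At the head of the authors' list without significance stand 73 clusters after which the chromosomes start over. Among these, 7 (9.59%) were gene-poor, close to the 8.96% over all clusters. They carry no value in the files, and they are named here only for their place in the list. The nearest coding genes were Ube2u on chromosome 4, the transcription factor gene Maf on chromosome 8 (115529967 to 115530032, 173253.5 bp away), Plxnc1 and Lrig3 on chromosome 10, Vrk1 on chromosome 12, the Iroquois homeobox gene Irx1 on chromosome 13 and Pdha1 on chromosome X. The one near Vrk1 (106282573 to 106282641, 69 bp) lies in the crowded stretch after the small nucleolar RNA gene Gm24986. The one near Irx1 (72036020 to 72036081) has the recurring length of 62 bp. What sets the 73 clusters apart was not tested.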
